A study of Mus musculus with 12 samples.

Results

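The effect of rapamycin on RNA in the challenged mouse aorta was described from 6 of the 12 arrays of the series, the 3 whose treatment label was beta-aminopropionitrile, angiotensin II and rapamycin (BA+rapamycin) and the 3 whose label was the same challenge with dimethylsulfoxide (BA+DMSO). All mice were C57BL/6J, and the methods describe adult males. Both groups were challenged through osmotic pumps with beta-aminopropionitrile (BAPN) at 150 mg/kg/day, a blocker of the lysyl oxidases that crosslink collagen and elastin, and with angiotensin II (AngII) at 1 µg/kg/min, a pressor peptide. BA+rapamycin mice also received rapamycin at 2 mg/kg/day, injected intraperitoneally each day from the day of pump implantation, and BA+DMSO mice received the vehicle DMSO by the same route. A piece of abdominal aorta was taken on day 3, which the study chose as a time before dissection develops. The other 6 arrays come from unchallenged mice, 3 given DMSO and 3 given rapamycin at the same dose. The titles of the DMSO arrays start with Pre, the name that the series record gives to mice on DMSO alone. In the study's tissue staining, Pre stands for aorta before the challenge. The treatment label, DMSO, was followed here. Each array holds the RNA of 1 mouse. The drug reached the whole animal and the tissue was not sorted, so a lower signal from fewer cells of a type and from less RNA per cell cannot be told apart.

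Rapamycin binds FKBP12, and the pair inhibits mTOR complex 1, a kinase complex that couples growth factors and amino acids to protein synthesis, ribosome production, lipid and nucleotide synthesis, and entry into the cell cycle. Among the transcription programmes that act below this complex are those of ATF4, which drives amino acid synthesis and uptake, of SREBP, which drives sterol synthesis, of HIF-1, which drives glycolysis, and of TFEB, which drives lysosome genes and is restrained by it. Smooth muscle cells, fibroblasts and macrophages of the aortic wall all respond to it, and rapamycin slows smooth muscle proliferation.

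Levels are given as log2 processed signal relative to the 75th percentile of the same array, so that 0 is that percentile, and a difference is BA+rapamycin minus BA+DMSO on the same scale. A level says nothing about how 1 gene stands to another, since each probe has its own response. All 11 markers fixed for the aortic wall were well above background on all 12 arrays, including Acta2, Myh11, Tagln and Cnn1 for smooth muscle, Pecam1 and Cdh5 for endothelium and Dcn and Lum for fibroblasts, and none of them was called between the groups. Acta2 differed by 0.18 (limma adjusted p 0.601), and by -0.29 after quantile normalization, and Dcn by 0.14 (limma adjusted p 0.767).

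The 6 arrays differed in brightness and in how alike they were. The 75th percentile of processed signal was 109, 74.6 and 108 intensity units in BA+rapamycin replicates 1 to 3 and 132, 78.1 and 246 in BA+DMSO replicates 1 to 3. BA+rapamycin arrays correlated with each other across probes at 0.974 to 0.982, and BA+DMSO arrays at 0.912 to 0.961. BA+DMSO replicate 2 correlated at 0.967 to 0.979 with the BA+rapamycin arrays. All 6 arrays were on 1 slide, and 0 spots were saturated. Values without that array, and list medians with log2 of the 75th percentile of each array as a covariate in limma (the brightness covariate, chosen after seeing the data), are given beside results that they move.

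**Figure D1:**
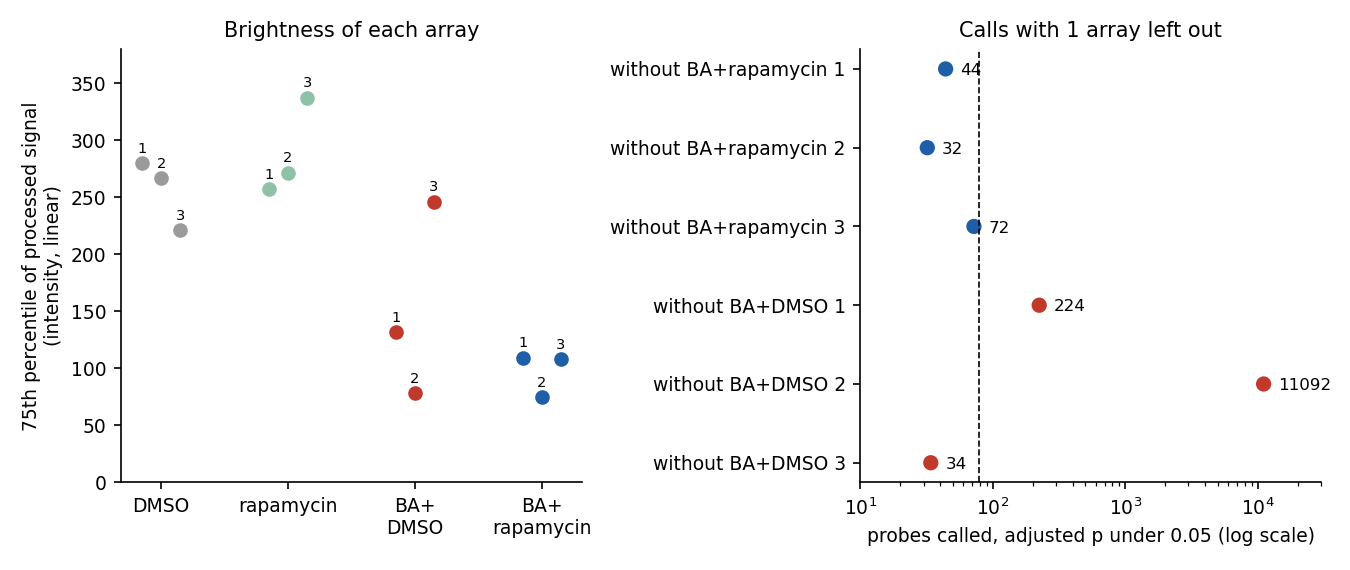
Left, 75th percentile of processed signal (linear intensity units) of each of the 12 arrays, numbered by replicate, where BA+DMSO spans 78.1 to 246. Right, number of probes called (log scale) when each of the 6 challenged arrays is left out, with a dashed line at the 78 calls of the full set, and 11092 calls without BA+DMSO replicate 2.

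Of 27801 probes tested with limma over the 12 arrays, 78 (0.281%) passed a Benjamini-Hochberg adjusted p of 0.05, 20 of them higher (0.0719%) and 58 lower (0.209%) with rapamycin. The balance turned to 327 higher and 146 lower with the percentile taken over probes well above background on all arrays, and to 193 and 119 with the brightness covariate. An unadjusted p under 0.05 was reached by 20.1% of the probes. The median difference over all probes tested was -0.01, with 49.3% of means higher and 50.7% lower. The values of the 2 groups did not overlap at any of the 78 probes, against 14.5% of all probes tested. Without that array all 78 were called again among 11092 calls (39.9% of probes tested). Of the 78, 61 were called again without BA+DMSO replicate 1 and 29 without replicate 3, and 28, 25 and 41 without BA+rapamycin replicates 1, 2 and 3. A limma fit of the 6 challenged arrays alone gave 0 calls, with a smallest adjusted p of 0.391. In that fit 2102 probes reached an unadjusted p under 0.05. The SE and adjusted p of the 12-array fit rest on 1 spread per probe, shared by all groups. The unchallenged arrays that enter this spread correlated within their groups at 0.987 to 0.993.

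Among the 58 lower probes, 22 were well above background on no BA+rapamycin array, and 16 on fewer than 3 BA+DMSO arrays. Where a gene of the 22 is described, its fold is a lower bound under the main processing only. Under alternative settings the differences could be smaller, down to -0.05 for C8g, -0.17 for Serpina3f, -0.30 for Slc40a1 and -0.32 for Phex. Among the 20 higher probes, 13 were well above background on all 3 BA+rapamycin arrays, and 10 on no BA+DMSO array. For 3 of the 20, a long intergenic RNA on chromosome 14, B230307C23Rik and a long intergenic RNA on chromosome X, no array of either group was well above background, so no fold is given for them.

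Genes of the interleukin-6 (IL-6) family changed in both directions. These cytokines signal through receptors that share the chain gp130 (Il6st) and act on Stat3. Il11, a member with known effects on fibroblasts and smooth muscle, rose, while Ctf1 (cardiotrophin-1) and Ebi3, a subunit of IL-27 and IL-35, fell. Of 15 members tested, 9 had higher means and 6 lower, with a median difference of 0.64 against -0.01 over all probes tested. That median was 0.17 without BA+DMSO replicate 3, 0.19 with the brightness covariate and 0.02 over the members well above background on all 12 arrays.

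Il11 (mm9 chr7:4724847-4724906, minus strand) was at 1.60, 2.74 and 1.10 in the BA+rapamycin arrays and at -0.59, -1.58 and -1.34 in the BA+DMSO arrays. All BA+rapamycin values lay above all BA+DMSO values, and the difference was 2.98 (SE 0.42, 7.92-fold, limma adjusted p 0.0196). The unchallenged means were -2.98 with DMSO and -2.74 with rapamycin, below every challenged array. The call held in 5 of the 6 fits that leave out 1 challenged array.

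Clcf1, another cytokine of the family, was at -0.34, -0.26 and -0.64 against -1.50, -1.89 and -1.40, with no overlap, and a difference of 1.18 that missed the threshold (limma adjusted p 0.0659). Cntfr, the receptor chain for ciliary neurotrophic factor, had a higher mean with rapamycin, was well above background on no BA+DMSO array and was not called (limma adjusted p 0.161).

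Ebi3 was at -0.91, -1.24 and -1.07 with rapamycin, and 0.12, -0.00 and -0.03 with vehicle. It fell by 1.10 (2.15-fold, limma adjusted p 0.0297), to a level still above the unchallenged means of -2.12 and -1.77. Ctf1 was at -0.83, -0.61 and -0.85 against 0.38, -0.06 and 0.66, a fall of 1.09 (limma adjusted p 0.0491), and it was highest in unchallenged aorta on DMSO, at a mean of 0.96. Both calls were lost in most fits with an array left out, and held in 2 and 1 of the 6. Il6 had a mean difference of 2.99 with an SE of 1.23, because the BA+DMSO arrays ranged over 2.84, -3.83 and -0.12, and it was not called (limma adjusted p 0.222).

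Osmr, the receptor chain for oncostatin M, differed by 0.64 (limma adjusted p 0.139). Below the receptors, 16 of 23 Stat3 and Socs genes had higher means, with a median difference of 0.63 and 0 called. The median was 0.30 without BA+rapamycin replicate 1, and 0.26 and 0.39 without BA+DMSO replicates 2 and 3, and it was 0.17 with array quality weights. Stat3 itself was at 5.56, 5.38 and 5.40 against 4.79, 5.25 and 4.38, with no overlap and a difference of 0.64 (limma adjusted p 0.172). The array score of a list is the median over its members of the difference from the mean of all 12 arrays. For the IL-6 family it was 0.54, 0.85 and 0.68 with rapamycin and 0.45, 0.02 and 0.16 with vehicle.

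**Figure D2:**
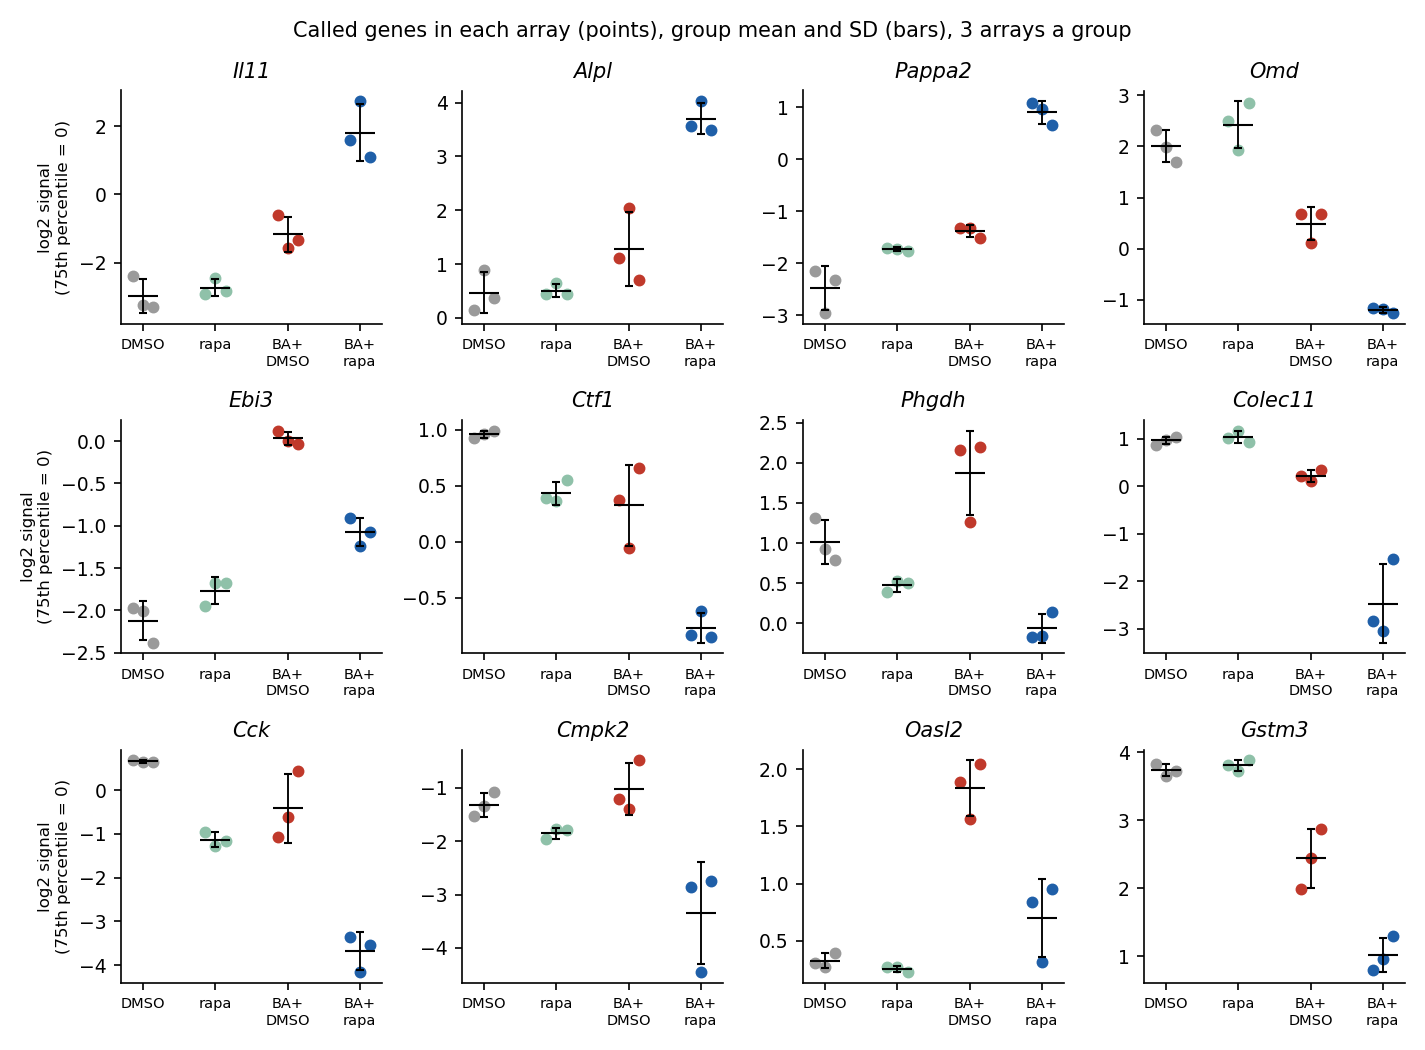
Log2 signal of 12 called genes (75th percentile of the array = 0) in the 3 arrays of each of the 4 groups, with bars at the group mean and 1 SD. BA+rapamycin values lie above all BA+DMSO values in Il11, Alpl and Pappa2 and below them in the other panels.

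RefSeq lists 2 start sites for Il11. The window from 250 bases before to 50 bases after 1 of them (GRCm38.p6 chr7:4778092-4778391, minus strand) holds the letters TGANTCA, the core bound by AP-1 factors, at position -98 from the start. The letters occur in 7.81% of all such windows, read on both strands. The window is printed because Il11 had the largest called rise of a named gene, with the match in capitals, and the match is a description of sequence only.
Il11: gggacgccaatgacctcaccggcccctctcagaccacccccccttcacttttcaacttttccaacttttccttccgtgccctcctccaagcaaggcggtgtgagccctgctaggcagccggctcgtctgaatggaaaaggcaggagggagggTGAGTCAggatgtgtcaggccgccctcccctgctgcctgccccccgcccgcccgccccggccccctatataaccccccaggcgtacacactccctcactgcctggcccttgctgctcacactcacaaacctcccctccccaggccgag

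Phgdh, the enzyme that commits a glycolytic intermediate to serine synthesis, fell at both of its probes. The probe at mm9 chr3:98117303-98117361 (minus strand) was at -0.17, -0.16 and 0.14 with rapamycin and at 2.16, 1.26 and 2.20 with vehicle. The other, at chr3:98117215-98117274, was at 0.41, 0.57 and 0.90 against 2.60, 1.89 and 2.72. The groups did not overlap at either probe, with differences of -1.94 (3.83-fold, limma adjusted p 0.0159) and -1.78 (3.44-fold, limma adjusted p 0.0178), and BA+DMSO replicate 2 was the lowest vehicle array at both. The calls held in 5 and 3 of the 6 fits with an array left out. In unchallenged aorta the first probe had means of 1.01 with DMSO and 0.47 with rapamycin.

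This signal recurred across the array. Besides the 2 Phgdh probes and AK195427 at the same locus, 6 tested probes placed elsewhere in the genome share a 25-base window with them at no more than 3 mismatches, and all 6 were called lower, with differences of -1.97 to -1.60. Their levels correlated with those of Phgdh at 0.969 to 0.988 over the 12 arrays. The shared stretches of 5 of the 6 are printed in pairs so that the likeness can be seen, with bases that differ in capitals, and the second line of each pair is from the probe of Phgdh or AK195427.
A_55_P1958464, placed at chromosome 7: tacagctActgtcctaccaaacctc
Phgdh: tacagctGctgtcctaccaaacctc
A_55_P2186929, placed at chromosome 2: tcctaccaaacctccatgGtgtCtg
Phgdh: tcctaccaaacctccatgTtgtTtg
A_55_P1984416, placed at chromosome 15: gAatcgcagaaccagggcatctgcG
AK195427: gGatcgcagaaccagggcatctgcC
A_55_P2023912, placed at chromosome 14: cagaaccagggcatctgTctgaact
AK195427: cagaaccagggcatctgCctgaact
A_55_P1967443, placed at chromosome 14: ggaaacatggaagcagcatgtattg
Phgdh: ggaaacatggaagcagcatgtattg

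Which transcript each of these probes reads cannot be told apart from the levels. Counted as 1 signal under that window rule, they make up 9 of the 58 lower probes. The count may leave out related probes. NAP114398-1, called lower by 1.63, lies 0.54 kb from A_55_P2186929 on mm9 and is not counted. They also make up 7 of the 17 probes that were called in every fit with 1 of the 6 challenged arrays left out. The other 10 of those 17 were probes for Pappa2, Tmem190, Colec11, Cck, C8g and Gstm6, 3 long intergenic RNAs on chromosomes 1, 6 and 14, and a further probe named NAP111644-1. A_55_P1984416, counted above with Phgdh, carries that same name.

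Phgdh was the 1 called member among 35 tested genes of the ATF4 and amino acid list, of which 29 had lower means and 6 higher, with a median difference of -0.45 (-0.28 without BA+DMSO replicate 3 and -0.24 with the brightness covariate). An unadjusted p under 0.05 was reached by 15 lower and 0 higher members, where 11% and 9.09% of all probes tested reached it. The groups did not overlap at 11 lower members and 1 higher member, against 7.57% and 6.9% of all probes. The array scores were -0.14, -0.09 and -0.17 with rapamycin and 0.17, 0.07 and 0.42 with vehicle.

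The next enzymes of serine synthesis stood beside Phgdh without passing the test. Psat1, the aminotransferase after Phgdh, was at 0.78, 0.66 and 0.51 against 2.67, 1.34 and 2.71, a difference of -1.59 (limma adjusted p 0.0856). Psph, the phosphatase that completes the pathway, was at -0.42, -0.78 and -0.19 against 1.02, -0.21 and 1.30, where the groups overlap (difference -1.17, limma adjusted p 0.129). Slc7a5, a transporter of large neutral amino acids, differed by -0.86 (limma adjusted p 0.0856), Mthfd2 by -0.82 (0.139 by the same limma adjustment) and the asparagine synthetase Asns by -0.78 (limma adjusted p 0.167). Without BA+DMSO replicate 2, Psat1 differed by -2.04 (limma adjusted p 0.00222) and Psph by -1.62 (limma adjusted p 0.002), and 21 members of the list were called lower and 0 higher, where 22.5% and 17.4% of all probes tested were.

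ATF4 binds the composite element TGATGNAA. The letters, on either strand, occur in the promoter windows of 10 of the 28 list members with a window (35.7%) and in those of 4.51% of all genes. The median difference was -0.48 for members with the letters and -0.45 for those without, and the Phgdh window holds none. The stretches of 4 members, with the match in capitals, show the element on both strands (GRCm38.p6, RefSeq).
Asns, chr6:7693213-7693242: cccagccacaTGATGAAActtcccgcacgc
Pycr1, chr11:120643832-120643861: gccctgtgtaTGATGCAAtgcacaaggctc
Chac1, chr2:119351039-119351068: ttccctgccgTTGCATCActcctgccaggt
Trib3, chr2:152344027-152344056: tagctcaggtTTACATCAgccgggcgggga

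Interferon-stimulated genes were mostly lower with rapamycin, and 3 fell past the threshold. They encode antiviral effectors, GTPases and sensors that are switched on after interferon. Of 54 members tested, 48 had lower means and 6 higher, with a median difference of -0.75. An unadjusted p under 0.05 was reached by 36 lower members and 1 higher member, and 25 lower members and 0 higher members had groups that did not overlap. Over all probes tested, 11% were lower at that p and 7.57% were lower with no overlap.

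Cmpk2, a mitochondrial nucleotide kinase, was at -2.87, -4.45 and -2.74 with rapamycin and at -1.21, -1.41 and -0.48 with vehicle. No BA+rapamycin array was well above background, and the fall was at least 3.03-fold (limma adjusted p 0.0494). A second probe differed by -2.12 and missed the threshold (limma adjusted p 0.0659). Oasl2, a relative of the oligoadenylate synthetases, was at 0.84, 0.31 and 0.95 against 1.89, 1.57 and 2.05, a fall of 1.13 (limma adjusted p 0.0491). Its unchallenged means, 0.32 and 0.25, lay below the mean of the rapamycin arrays. Ifit2, which binds viral RNA, was at -1.30, -1.66 and -1.54 against -0.67, -0.59 and -0.41, a fall of 0.94 (limma adjusted p 0.0464), and its unchallenged means were -0.67 and -0.66. These 3 calls held in 2, 1 and 2 of the 6 fits with an array left out.

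Other well-known members missed the threshold. Ifit3 was at 0.10, -1.12 and -0.32 against 1.51, 0.81 and 2.39, with no overlap (difference -2.01, limma adjusted p 0.0629). Isg15, a ubiquitin-like modifier, was at 2.22, 1.93 and 1.69 against 3.75, 2.49 and 4.21 (difference -1.54, limma adjusted p 0.102). Usp18, which removes Isg15 from proteins, was at -0.60, -2.37 and -1.86 against -0.16, -0.57 and 0.63 (difference -1.58, limma adjusted p 0.106), where BA+rapamycin replicate 1 and BA+DMSO replicate 2 nearly met. The member with the largest higher mean, Gbp6, differed by 2.09 with an SE of 1.46, and by -0.05 without BA+DMSO replicate 3.

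The array scores of the list were 0.15, -0.43 and -0.11 with rapamycin and 0.87, 0.31 and 0.87 with vehicle, so the groups did not overlap, and the nearest vehicle array was replicate 2. Without it, 37 members were called lower and 3 higher, where 22.5% and 17.4% of all probes tested were. The median kept its sign under all 16 alternative settings, from -0.97 to -0.41. No member was called without BA+DMSO replicate 3, where the median was -0.58.

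**Figure D3:**
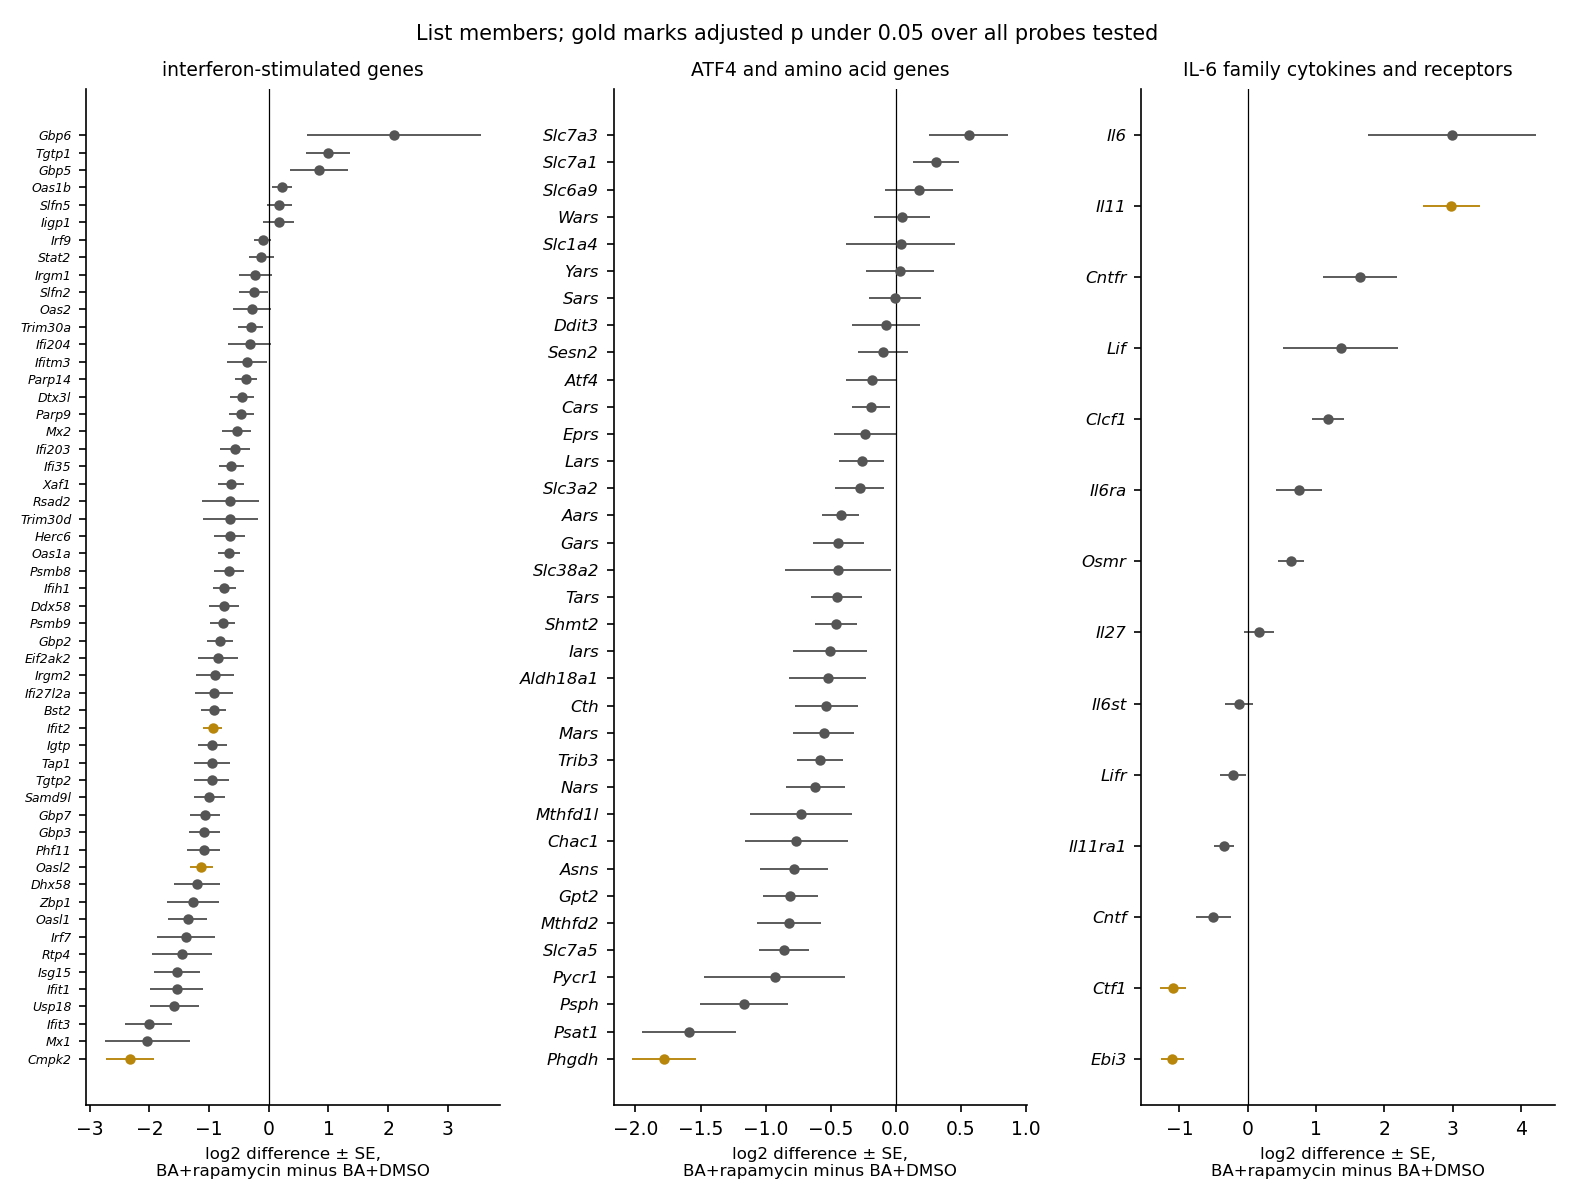
Log2 difference, BA+rapamycin minus BA+DMSO, with its SE, for tested members of 3 gene lists (54 interferon-stimulated genes, 35 ATF4 and amino acid genes, 14 of the 15 IL-6 family genes), ordered by difference, with members past an adjusted p of 0.05 in gold. Most points of the first 2 panels lie left of 0, and the called members of the third lie on both sides.

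The interferon-stimulated response element, searched as GAAA, any 2 bases and GAAA, is a promoter element of genes that respond to interferon. It occurs on either strand in the promoter windows of 25 of the 40 list members with a window (62.5%) and in those of 3.99% of all genes. Members with the letters had a median difference of -0.75 and the 15 without had -0.78. The windows of the 3 called genes hold none. The stretches of 5 members with large differences are printed with the match in capitals.
Ifit3, chr19:34583363-34583392: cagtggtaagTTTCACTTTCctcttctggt
Ifit1, chr19:34640775-34640804: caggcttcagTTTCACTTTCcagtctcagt
Isg15, chr4:156200877-156200906: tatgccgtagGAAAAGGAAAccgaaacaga
Gbp3, chr3:142559989-142560018: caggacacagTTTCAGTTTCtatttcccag
Gbp7, chr3:142530273-142530302: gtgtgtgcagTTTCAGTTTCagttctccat

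Among genes of mineral handling 1 rose and 1 fell. Alpl, the alkaline phosphatase that removes pyrophosphate, an inhibitor of mineral deposition, was at 3.57, 4.03 and 3.49 with rapamycin and at 1.11, 2.05 and 0.70 with vehicle. Every rapamycin array was higher, by 2.41 in the mean (5.32-fold, limma adjusted p 0.016), and the unchallenged means were 0.47 and 0.51. Phex, a membrane peptidase needed for phosphate balance, was at -3.52, -4.54 and -4.24 against -1.88, -2.52 and -1.46, a fall of at least 1.67-fold (limma adjusted p 0.0297). Omd, a small proteoglycan of bone and tendon that is not in the list and was placed here after its values were seen, was at -1.15, -1.18 and -1.26 against 0.67, 0.12 and 0.68, a fall of 1.69 (limma adjusted p 0.0275). Of 16 calcification and phosphate genes tested, 9 had higher and 7 lower means, with a median of 0.10 whose sign was kept under 11 of 16 alternative settings, and Alpl and Phex were the 2 called. Sost, a Wnt inhibitor, was at 0.63, 0.41 and 1.47 against 1.46, 2.60 and 3.76 and overlapped by 1 array (difference -1.77, limma adjusted p 0.114). The calls of Alpl, Phex and Omd held in 5, 3 and 2 of the 6 fits with an array left out.

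In the insulin-like growth factor (IGF) system, Pappa2, a protease that cuts IGF-binding proteins and so frees IGF, was at 1.08, 0.97 and 0.66 with rapamycin and at -1.32, -1.31 and -1.52 with vehicle. The spread within each group was small beside the difference of 2.29 (SE 0.21, 4.88-fold, limma adjusted p 0.00546), and the call held in all 6 fits with an array left out. Unchallenged means of Pappa2 were -2.48 with DMSO and -1.73 with rapamycin, a difference of 0.74 that was not called (limma adjusted p 0.751). Igfbp2, a binding protein, was at 1.88, 2.49 and 2.87 against 4.17, 3.81 and 5.33, with no overlap and a difference of -2.02 that missed the threshold (limma adjusted p 0.0627). Over the 11 members tested the median difference was 0.15, and its sign was kept under 13 of 16 alternative settings.

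Several secreted and immune genes fell, a grouping made after their values were seen. Colec11, a collectin that starts the lectin pathway of complement, was at -2.82, -3.05 and -1.52 with rapamycin and at 0.21, 0.11 and 0.35 with vehicle, while both unchallenged groups were near 1, at 0.97 and 1.04. It fell by 2.69 (limma adjusted p 0.00894), with 1 BA+rapamycin array well above background. C8g, the gamma chain of complement component C8, fell at least 1.37-fold at 1 probe (limma adjusted p 0.00652), but its other probe differed by 0.36 in the opposite direction (limma adjusted p 0.535). Cd209f, a C-type lectin of the DC-SIGN family, was at -0.98, -1.34 and -0.62 against 1.14, 1.14 and 0.95, a fall of 2.06 (4.16-fold, limma adjusted p 0.0231). Serpina3f, a serine protease inhibitor, was at -4.33, -4.29 and -3.27 against -1.94, -1.77 and -1.81, a fall of at least 1.81-fold (limma adjusted p 0.0472). The calls of Colec11 and C8g held in all 6 fits with an array left out, that of Cd209f in 3 and that of Serpina3f in 2.

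Among chemokines and inflammatory mediators, 26 of 43 tested members had higher and 17 lower means, with a median of 0.10 whose sign was kept under 14 of 16 alternative settings. The 1 called member was Ccrl1 (now Ackr4), a receptor that takes up chemokines without signalling, at -3.77, -4.46 and -3.87 against -0.43, -2.04 and -1.36, at least 2.67-fold lower (limma adjusted p 0.0159). The largest difference upward was that of Cxcl14, a chemokine of epithelia and fibroblasts, at 1.57, 1.78 and 1.51 against -0.06, -1.05 and -1.45. The Cxcl14 groups were well apart, yet the difference of 2.47 missed the threshold (SE 0.47, limma adjusted p 0.0621). Il33, an alarmin, was at 3.93, 3.61 and 3.07 against 2.81, 1.61 and 1.95 (difference 1.41, limma adjusted p 0.0871). Il17d fell at 1 probe, from 1.42, 1.41 and 1.37 to 0.47, 0.50 and 0.67 (limma adjusted p 0.0415), while its second probe differed by -0.22 (limma adjusted p 0.575). The calls of Ccrl1 and Il17d held in 5 and 2 of the 6 fits with an array left out.

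Several enzymes were among the falls and are grouped here after their values were seen. Gstm3, a glutathione S-transferase of the mu class, was at 0.80, 0.97 and 1.29 with rapamycin, 2.00, 2.45 and 2.87 with vehicle and about 3.8 in unchallenged aorta (means 3.74 and 3.81), a fall of 1.42 under rapamycin (limma adjusted p 0.0297). Both probes of the neighbouring Gstm6, 27.4 and 27.5 kb away on mm9, were called lower too, and probes of this family may share signal. Aass, the first enzyme of lysine breakdown, fell by 1.40 (-1.60, -0.78 and -1.24 against 0.27, 0.17 and 0.16, limma adjusted p 0.0437). Impa2, an inositol monophosphatase, fell by 1.52 (limma adjusted p 0.0274) and Camk2b, a subunit of calcium/calmodulin-dependent kinase II, by 1.30 (limma adjusted p 0.0497). Ces2g, a carboxylesterase, fell by 1.09 (limma adjusted p 0.0297) and Pigz, a mannosyltransferase of glycolipid anchors, by 1.12 (limma adjusted p 0.016). With an array left out, the Pigz call held in 5 of the 6 fits, those of Gstm3 and Impa2 in 3, and those of Aass, Camk2b and Ces2g in 2.

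Slc40a1 (ferroportin), the exporter of iron from cells, was at -4.88, -4.42 and -3.35 against -1.46, -1.87 and -2.06, a fall of at least 1.86-fold (limma adjusted p 0.0211), the 1 call among 16 iron genes tested. Cck, the peptide cholecystokinin, was at -3.35, -4.16 and -3.53 against -1.08, -0.62 and 0.44, a fall of at least 4.84-fold (limma adjusted p 0.00617), in all 6 fits with an array left out. Its unchallenged means were 0.66 with DMSO and -1.13 with rapamycin. The gene named 1500015O10Rik in the files (Ecrg4), a secreted peptide precursor, was at -0.81, -1.75 and -0.17 against 1.41, 1.26 and 1.35, a fall of 2.25 (4.74-fold, limma adjusted p 0.0263), with 1.91 in both unchallenged groups. The calls of Slc40a1 and 1500015O10Rik held in 3 and 4 of the 6 such fits.

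Some called genes lie close to each other on mm9. Il11 and Tmem190, 10.9 kb apart on chromosome 7, both rose. Tmem190, a membrane protein, was at -2.18, -1.66 and -1.70 against -3.74, -4.41 and -5.13, a rise of at least 2.61-fold (limma adjusted p 0.00894). Phf19, a subunit of Polycomb complex 2, and D730039F16Rik (Cutal), 11.7 kb apart on chromosome 2, both fell, by 1.41 and 1.52 (limma adjusted p 0.0462 and 0.0472). In contrast, E330037I15Rik rose by 1.92 (limma adjusted p 0.0274) while 1500026H17Rik, 54.4 kb away on chromosome 10, fell at least 1.46-fold (limma adjusted p 0.0242). The calls of Phf19, D730039F16Rik, E330037I15Rik and 1500026H17Rik held in 2, 2, 4 and 3 of the 6 fits with an array left out. No test of nearness was run.

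The largest called rise was at a probe for a long intergenic RNA, an unnamed noncoding transcript, at mm9 chr1:160888257-160910594, 246 kb from the probe of Pappa2. It was at 0.68, 0.95 and -0.33 with rapamycin and at -3.65, -2.77 and -3.97 with vehicle, and its unchallenged means were -3.89 and -3.93. No BA+DMSO array was well above background, and the rise was at least 12.7-fold (limma adjusted p 0.00652). The other 2 probes of the locus had higher means too without passing the test (limma adjusted p 0.0668 and 0.0983), and neither was well above background on a BA+DMSO array. The 3 probes are printed because the transcript has no other name, in the order of the called probe and the 2 that were not called.
chr1:160888258-160888317: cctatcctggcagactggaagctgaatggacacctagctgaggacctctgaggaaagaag
chr1:160888331-160888390: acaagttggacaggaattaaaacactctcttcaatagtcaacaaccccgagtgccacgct
chr1:160888391-160888450: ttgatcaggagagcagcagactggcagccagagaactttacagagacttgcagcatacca

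Long intergenic RNA probes made up 9 of the 20 rises and 2 of the 58 falls, and 18% of all probes tested. Probes of 1 locus did not always go together. At chr14:20893694-20903726 the called probe was well above background on none of the 6 challenged arrays. The 4 other probes, well above background on all 6, differed by -0.61 to -0.14 and were not called.

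The other programmes that act below mTOR complex 1 had lower means with few calls. Components of the pathway itself numbered 44 tested, 16 with higher and 28 with lower means and 0 called, with a median of -0.12 (-0.01 with the brightness covariate) whose sign was kept under 15 of 16 alternative settings. An unadjusted p under 0.05 was reached by 4 higher and 9 lower members, against 9.09% and 11% of all probes tested. Without BA+DMSO replicate 2, 7 were called higher and 11 lower, where 17.4% and 22.5% of all probes tested were, with a median of -0.24. The 3 largest differences were those of Ddit4l (-1.69, limma adjusted p 0.147), Ddit4 and Irs2, an adaptor of the insulin receptor, whose groups overlapped (1.60, limma adjusted p 0.176). Ddit4 (REDD1), an inhibitor of the complex, was at 2.44, 1.39 and 3.16 against 3.86, 3.52 and 4.60 (difference -1.66, limma adjusted p 0.13), and Sesn3 (sestrin 3) at -1.28, -2.47 and -1.97 against -0.29, -1.16 and 0.24 (difference -1.50, limma adjusted p 0.0957). Neither Ddit4 nor Sesn3 overlapped between the groups. Castor1, an arginine sensor, differed by -1.03 (limma adjusted p 0.0938), and Tsc2, the GTPase activator that switches the complex off, by 0.89 in the other direction (limma adjusted p 0.0975). Mtor itself differed by -0.12 (SE 0.25, limma adjusted p 0.77), and by 0.21 without BA+DMSO replicate 3.

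Of 29 glycolysis and hypoxia genes, 22 had lower means and 7 higher, with a median of -0.36, which was -0.59 without BA+DMSO replicate 2 and -0.15 both without replicate 3 and with the brightness covariate. Aldoc, a fructose-bisphosphate aldolase, was the 1 called, at -2.06, -2.28 and -1.96 against -0.48, -0.94 and 0.02, a fall of 1.64 (3.11-fold, limma adjusted p 0.0265) that was called in 2 of the 6 fits with an array left out, and its unchallenged means were -0.86 with DMSO and -1.92 with rapamycin. Adm (adrenomedullin), a vasodilator peptide induced by hypoxia, was at -0.26, -0.81 and -0.07 against 1.22, 0.21 and 1.16 (difference -1.24, limma adjusted p 0.0957). Hk1, a hexokinase, went the other way, at a difference of 0.66 (limma adjusted p 0.111).

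Of 34 sterol and fatty acid synthesis genes, 30 had lower means and 0 were called, with a median of -0.44. That median was -0.70 without BA+DMSO replicate 2, -0.34 without replicate 3 and -0.28 with the brightness covariate. Nsdhl, an enzyme of cholesterol synthesis, was at -0.89, -0.77 and -1.04 against 0.39, -0.45 and 0.62, with no overlap (difference -1.09, limma adjusted p 0.0907). In the unchallenged aorta the same list had a median of -0.65 for rapamycin minus DMSO, with 33 of 34 means lower. Of 40 lysosome and autophagy genes, 34 had lower means (median -0.29, 0 called, and -0.47 and -0.13 without BA+DMSO replicates 2 and 3, and -0.10 with the brightness covariate), and of 40 ribosome biogenesis genes 28 had lower means (median -0.10, 0 called, its sign kept under 13 of 16 alternative settings).

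Cell cycle genes had a nearly uniform direction and 0 calls. Of 38 DNA replication genes tested 37 had lower means (median -0.83), and of 45 mitosis and kinetochore genes 44 did (median -1.24). At an unadjusted p under 0.05, 26 and 32 members of the 2 lists were lower and 0 higher. Of all probes tested, 11% were lower and 9.09% higher at that p. The groups did not overlap at 9 and 5 lower members of the 2 lists, against 7.57% of all probes tested. Chaf1b, a subunit of a histone chaperone, was at 1.39, 0.81 and 1.20 against 2.84, 1.94 and 2.65, with no overlap (difference -1.34, limma adjusted p 0.0626). E2f1, the factor that switches on S-phase genes, was at 0.43, 0.01 and 0.31 against 1.81, 0.91 and 1.36 (difference -1.11, limma adjusted p 0.0779), and Tk1, thymidine kinase, at 1.12, 0.52 and 0.54 against 3.11, 1.14 and 2.56 (difference -1.54, limma adjusted p 0.111). In each of these BA+DMSO replicate 2 was the lowest vehicle array. Its difference from the BA+rapamycin mean had a median of -0.01 over DNA replication genes and -0.03 over mitosis genes. Without it, 32 of the 38 and 42 of the 45 were called lower and 0 higher, where 22.5% and 17.4% of all probes tested were, with medians of -1.30 and -1.93. Without BA+DMSO replicate 1 the medians were -0.51 and -0.73, and with the brightness covariate -0.54 and -0.84. Among 25 genes of G1 cyclins, their kinases and the E2F and Rb families, 21 had lower means, with a median of -0.47 and 0 called, and without BA+DMSO replicate 2 the median was -0.70, with 1 called higher and 13 lower.

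The contractile and matrix lists, for structural genes of the wall, had no called member. Of 44 contractile smooth muscle genes 22 had higher and 22 lower means, and of 66 extracellular matrix and crosslinking genes 36 had higher and 30 lower means. Their medians, -0.04 and 0.03, kept their sign under 12 and 13 of 16 alternative settings. Without BA+DMSO replicate 2, 10 contractile genes were called higher and 2 lower, and 8 and 14 matrix genes, where 17.4% and 22.5% of all probes tested were, with medians of 0.01 and -0.11. Eln, which encodes elastin, was at 5.28, 5.21 and 5.48 against 6.79, 5.45 and 7.33 (difference -1.20, limma adjusted p 0.144), and Fbln5, which helps to assemble elastic fibres, at 5.37, 5.63 and 6.00 against 7.06, 6.30 and 7.17 (difference -1.18, limma adjusted p 0.0692). Fbln5 did not overlap between the groups. Myh11, smooth muscle myosin, differed by 0.51 with all arrays (limma adjusted p 0.511) and by 1.26 without BA+DMSO replicate 2 (limma adjusted p 0.00262). A further list held genes whose proteins were followed in this aortic model. Of its 19 members 7 had higher and 12 lower means and 0 were called, among them Myh10, a non-muscle myosin (difference -0.77, limma adjusted p 0.141), and Tnc, tenascin C (difference 0.78, limma adjusted p 0.21).

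Markers of cells that the excised tissue can hold also varied between arrays. The macrophage score was 0.81, 0.81 and 0.74 with rapamycin and 1.65, 0.22 and 1.13 with vehicle, with 8 of 19 members higher and 0 called. The macrophage median was -0.15, and it was -0.62 without BA+DMSO replicate 2 and 0.38 without BA+DMSO replicate 1. Without replicate 2, 1 macrophage gene was called higher and 4 lower, where 17.4% and 22.5% of all probes tested were. Gpnmb, a glycoprotein of lipid-laden macrophages, was at -4.85, -2.97 and -4.06 against -2.15, -2.47 and -1.43, was well above background on no BA+rapamycin array and was not called (limma adjusted p 0.1). Mesothelial and simple epithelial genes had lower means in 17 of 18 members, with a median of -1.39 (-0.92 without BA+rapamycin replicate 1) and scores of -0.91, -0.48 and 1.22 against 1.33, 1.82 and 0.78, so that BA+rapamycin replicate 3 lay within the vehicle arrays. All 7 tested erythroid genes had higher means, with scores of 1.38, 1.12 and 1.02 against 0.18, -0.19 and 0.77. Of 39 striated muscle genes 30 had higher means and 0 were called, with a median of 0.49 (0.17 with the brightness covariate, 0.27 without BA+rapamycin replicate 1 and 0.25 without BA+DMSO replicate 1) and scores of 0.89, 0.38 and -0.49 against -1.06, 0.54 and -0.55. Without BA+DMSO replicate 2, 13 of them were called higher and 1 lower, where 17.4% and 22.5% of all probes tested were. The lists for neutrophils, T and B lymphocytes, endothelium, adipocytes, nerve, and kidney, liver and adrenal gland had 0 calls and scores that overlapped between the groups, with medians from -0.35 to 0.22. The adipocyte median, -0.35, was 0.16 without BA+rapamycin replicate 2 and 0.12 without BA+DMSO replicate 2. The circadian clock list had 8 higher and 8 lower means and 0 calls. The part of these cells in the differences above was not tested.

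**Figure D4:**
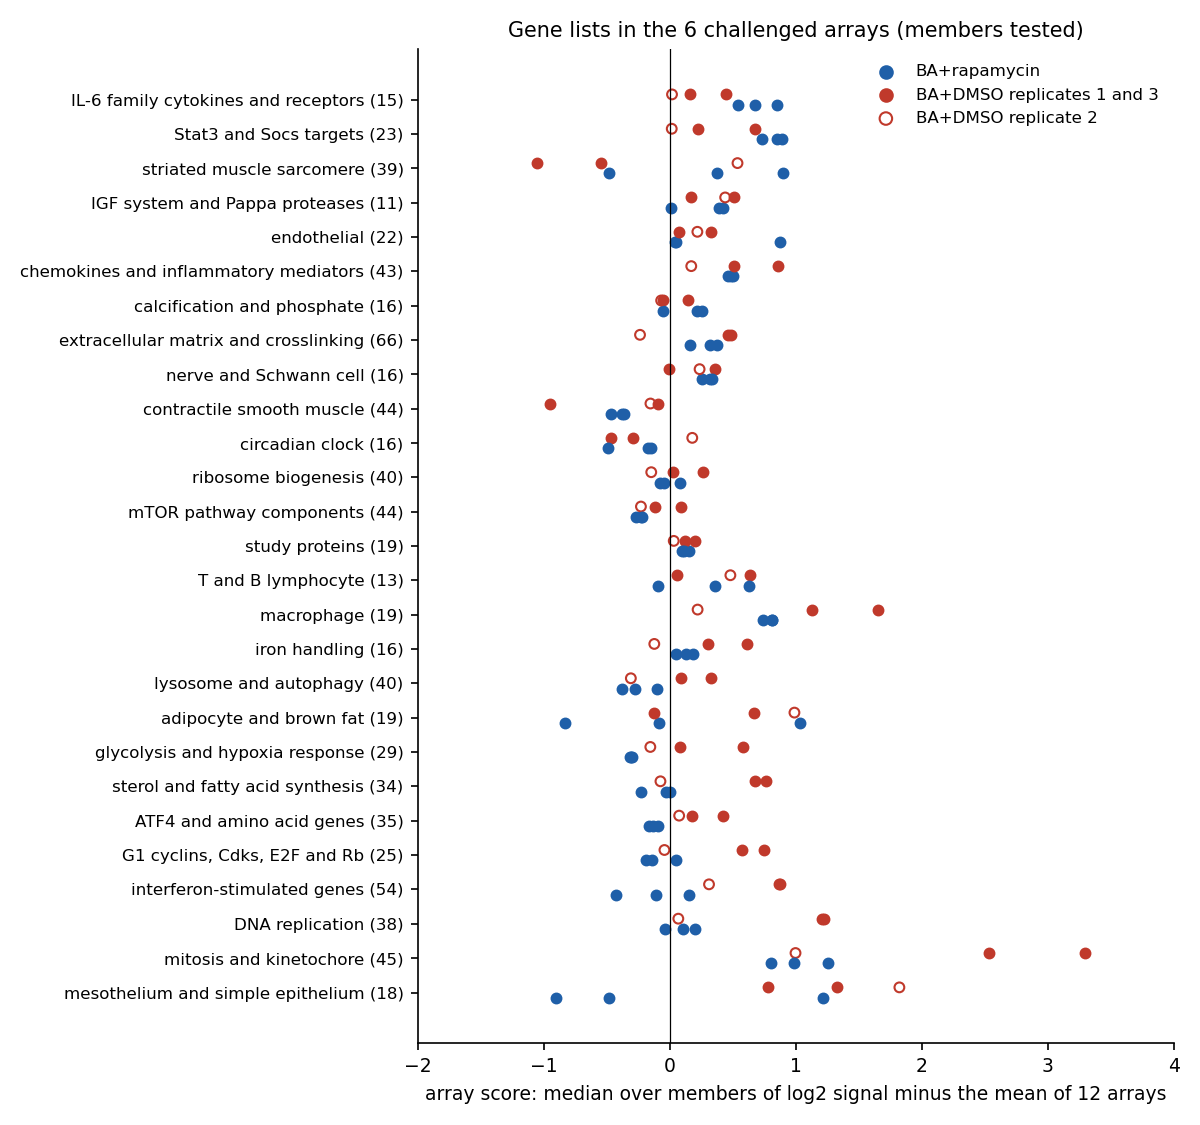
Array score of each gene list (median over tested members of the log2 signal minus the mean of the 12 arrays), with the number of members tested in parentheses, for the 3 BA+rapamycin and 3 BA+DMSO arrays, replicate 2 of BA+DMSO drawn open. In the DNA replication and mitosis lists this array lies with the BA+rapamycin arrays, while in the interferon, ATF4, glycolysis, IL-6 and Stat3 lists all BA+DMSO scores lie on 1 side of the BA+rapamycin scores. The neutrophil, erythroid and kidney lists, with 8, 7 and 4 tested members, are not drawn.

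Whether rapamycin did the same in the unchallenged aorta was asked with rapamycin minus DMSO, which shares no array with the comparison above. The 3 DMSO arrays and unchallenged rapamycin replicate 1 were on a different slide from the challenged arrays. Unchallenged rapamycin replicates 2 and 3 were on the slide of the challenged arrays. Over all probes tested, 49% of means were higher and 51% lower with rapamycin in the unchallenged aorta. Of the 78 probes called under challenge, 60 had the same sign, 13 of 20 rises and 47 of 58 falls. The unchallenged and challenged differences were 0.24 and 2.98 for Il11, 0.04 and 2.41 for Alpl, and 0.08 and -2.69 for Colec11, while Aldoc, at -1.06 and -1.64, and Cck, at -1.79 in the unchallenged aorta, were lower in both. Pappa2, at 0.74 and 2.29, was higher in both. The difference of the 2 differences, tested by limma as an interaction over all 27801 probes, gave 0 calls, with a smallest adjusted p of 0.308 and 1702 probes (6.12%) at an unadjusted p under 0.05. Array quality weights gave 929 such calls, and leaving out BA+DMSO replicate 2 gave 3058. Of the 78 probes 70 had an unadjusted interaction p under 0.05, which is a description, since they were chosen on 1 of the 2 terms of that difference.

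**Figure D5:**
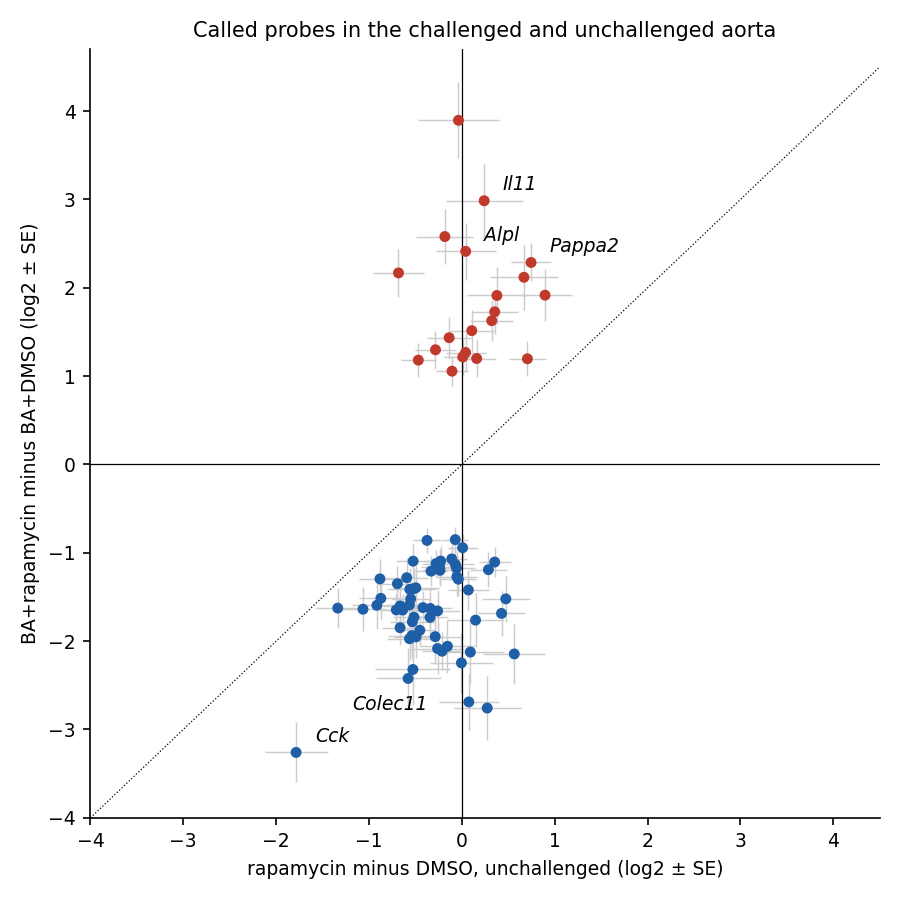
Difference with rapamycin under challenge (vertical, log2, with SE) against the difference in unchallenged aorta (horizontal, log2, with SE) for the 78 probes called under challenge, rises in red and falls in blue, with a dotted line where both are equal. Differences are plotted as measured, also where a group was not well above background. Most points lie farther from 0 vertically than horizontally, and Cck is the labelled gene with the largest unchallenged difference, at -1.79.

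Set against the unchallenged groups, the 17 rises with a BA+rapamycin array well above background all had BA+rapamycin means above the means of both unchallenged groups. Of 36 falls with such an array, 32 had BA+rapamycin means below both. The other 4 were Ebi3 and Oasl2, above both unchallenged means, and Phf19 and the probe NAP114398-1, above 1 of them. These counts are a description, since the probes were called on the same BA+rapamycin means, and the share over all probes tested was not counted. The unchallenged arrays were also brighter, with a 75th percentile of 221 to 337 intensity units against 74.6 to 109 in BA+rapamycin.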

How the data were processed

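Per the labels, total RNA of 12 aortas was labelled with Cy3 and read on 1-colour Agilent arrays. Per the file headers, the authors' processed signal is a background-subtracted, detrended intensity on a linear scale from Feature Extraction 10.7.1.1 (the submitters' notes give 9.5.1.1), and spot flags of 0 or 1 are other values. The deposited matrix holds intensity with the same median on every array, by a method not given in the sources used here. Probe positions are those of the files (mm9), and exon or UTR positions were not analysed here. Here log2 of the deposited processed signal was taken, outlier spots and 3671 control spots removed, spots of a probe averaged, and the 75th percentile of the array subtracted. A probe was tested if at least 0.5 of its spots cleared the background flag on the 3 arrays of any group. That left 27801 of 55681 probes, after 6 without a value were dropped. limma 3.58.1 in R 4.3.3 (data.table in version 1.17.8) fitted 1 mean per group over 12 arrays, two-sided, with Benjamini-Hochberg adjustment over all probes tested and a threshold of 0.05. The code of the fit was run on simulated data with independent noise of the same spread in every group. Those data lack the wider spread of BA+DMSO and the differences in brightness, so the run says nothing about their effect on the calls. A second count used an unadjusted p under 0.01 and a fold over 4 or under 0.25.

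"At least" folds hold for the main processing and compare the brighter group with the lowest signal well above background on each array. Each list gene stood by its tested probe with the highest mean. Promoters came from RefSeq (GRCm38.p6), and RefSeq held 17563 of 18192 accessions, 1736 under another symbol. Named genes were called genes with a symbol, detected throughout the group with more signal and without overlap (9 rises and the 20 largest falls), called members and the 3 largest differences of the 30 lists, genes of the measured proteins, and probes called in every fit with an array left out. Some genes that this rule names are not reported here. Other called genes were named after their values were seen. Members, lists and rule were chosen with earlier results of these data known. No column of other series was present (0). The series record gives 3 mice per group, and the number of arrays limits the precision. Alternatives were other normalizations, filters, weights, the slide, fewer arrays, brightness and a number in the sample titles.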

Additional observations from a re-analysis of the deposited data

How the results depend on the processing

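With each of the 6 challenged arrays left out in turn, calls ranged from 32 to 11092, large changes (unadjusted p under 0.01 and fold over 4 or under 0.25, 48 in the full set, 0.173% of probes) from 40 to 273, and interaction calls, over all 12 arrays in turn, from 0 to 3058. The lowest count of calls came without BA+rapamycin replicate 2 and the highest of all 3 counts without BA+DMSO replicate 2. Calls were 223 after quantile normalization (40 higher), 222 from the deposited matrix (40 higher), 473 with the percentile taken over probes detected on all arrays (327 higher, which moves the median of all probes to 0.13), 11 after normexp, 21 without a filter, 38 with probes detected on all 12 arrays, 7094 with array weights, 66 with the slide as a random block and 0 with the 6 challenged arrays alone. A covariate for brightness, chosen after seeing the data, gave 312 (193 higher) and kept 77 of the 78. Large changes were 105, 129, 5, 103, 10 and 173 under quantile normalization, the matrix, normexp, no filter, the all-array filter and array weights, and 30 with the covariate. Array weights gave 929 interaction calls and weighted BA+DMSO replicates 2 and 3 at 0.11 and 0.20. Under normexp, 73 of 78 kept their sign, and 5 falls reversed to Epb4.1l5 0.077, Zfp811 0.0013, Rab37 0.080, 2310015D24Rik 0.012 and AI480461 0.13. None of these 5 probes was well above background on a BA+rapamycin array. The cause was not tested. Of the 78 called probes no other changed sign. Of 96 named genes that were not called, 15 had a difference that changed sign in at least 1 setting. In all, 433 values lost their call, 104 gained one, and 17 list medians moved by more than the spread between replicates. No paired analysis was possible by replicate number, because replicate numbers were given in order of deposition and pair no arrays. The titles of 10 arrays carry a number that may be a day, which 1 array of each challenged group shares and 2 BA+DMSO titles lack. With it as a block over those 10 arrays, chosen after seeing the data, limma gave 0 calls (7844 at an unadjusted p under 0.05), 415 large changes and 0 interaction calls, with the challenged difference resting on that 1 pair.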
